A study of Homo sapiens with 6 samples.

Results

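The genes described here are 38 human genes that carry out mitosis: cyclins and CDK1, the PLK1, Aurora and NEK2 kinases, spindle checkpoint proteins, kinesins, and centromere and kinetochore components. They were chosen by name from a list and not by a rule on their values in these samples, though earlier results of these data were known. All 38 of the 38 were measured, by 65 of the 22215 probe sets tested, among 11963 genes in all. The other groups of genes used beside them are 64 further G2/M genes and 48 DNA replication genes.

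The study asked how SH-SY5Y cells, a neuron-like line from a human neuroblastoma, respond to unconjugated bilirubin (UCB), the product of heme breakdown that is toxic to neurons. In the Bf 140 nM group, 3 flasks were exposed for 4 h to medium with a free bilirubin concentration (Bf) of 140 nM. In the DMSO 0.6% group, 3 flasks received for 4 h medium with the solvent of bilirubin alone, at 0.6%. RNA of each flask was hybridised to an Affymetrix GeneChip, an oligonucleotide array with probe sets of short oligonucleotides near the 3' end of each transcript. Both groups shared the cell line, the culture medium and the solvent, and the results hold for this single line. Values are normalised levels on a generalised log2 scale, so that a difference of 1 is a 2-fold ratio, and differences are Bf 140 nM minus DMSO 0.6% unless stated otherwise.

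Mitotic genes are transcribed in a wave late in the cell cycle. CDK1 bound to cyclin B drives entry into mitosis, kinesins and their partners build the spindle, the checkpoint holds the anaphase-promoting complex (APC/C) until every kinetochore is attached, and separase then parts the sister chromatids. In human cells the promoters of many of these genes carry a cell cycle genes homology region (CHR), through which a repressor complex keeps them low outside this wave, together with CCAAT boxes that bind the activator NF-Y.

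Promoter windows (250 bases before to 50 after the gene start, RefSeq, GRCh38.p14) were held for 32 of the 38 genes, with 42 windows. TTTGAA, the only form of the CHR looked for, was searched on both strands. It was found in 25 of the 42 windows (59.5%), against 15.2% of all 35116 RefSeq windows of the same length. CCAAT, also searched on both strands, was found in 34 (81.0%) against 34.6%. Both motifs, whose letters can share 1 base at their ends, stood in 23 windows (54.8%), against 5.90% of all windows. The stretches of 6 of these genes are given because their levels are followed in the results, or, for CCNB2 and KIF4A, because both motifs lie close together just ahead of the start. Each stretch runs 5′ to 3′ from 120 bases before to 10 bases after the start, with matches to TTTGAA and CCAAT in capitals, and ATTGG is CCAAT on the other strand. CCNB2 lies at chr15:59105026-59105155, plus strand, PLK1 at chr16:23678769-23678898, plus strand, and ESPL1 at chr12:53268179-53268308, plus strand. KIF4A lies at chrX:70289984-70290113, plus strand, PRC1 at chr15:90994526-90994655, minus strand, and KIF20A at chr5:138178992-138179121, plus strand.
CCNB2: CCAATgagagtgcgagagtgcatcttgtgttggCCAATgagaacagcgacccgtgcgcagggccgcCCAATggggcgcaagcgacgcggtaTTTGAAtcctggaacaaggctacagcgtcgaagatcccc
PLK1: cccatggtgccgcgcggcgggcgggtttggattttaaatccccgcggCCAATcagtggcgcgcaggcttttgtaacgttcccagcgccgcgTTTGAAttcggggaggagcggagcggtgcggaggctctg
ESPL1: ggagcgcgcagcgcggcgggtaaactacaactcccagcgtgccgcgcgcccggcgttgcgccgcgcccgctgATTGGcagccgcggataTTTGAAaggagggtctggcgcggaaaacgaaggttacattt
KIF4A: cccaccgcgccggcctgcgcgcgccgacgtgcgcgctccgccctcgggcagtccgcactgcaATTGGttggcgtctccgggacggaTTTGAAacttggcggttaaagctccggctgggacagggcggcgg
PRC1: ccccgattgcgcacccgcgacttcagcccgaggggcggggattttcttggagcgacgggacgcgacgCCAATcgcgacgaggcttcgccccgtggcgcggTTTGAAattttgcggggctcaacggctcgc
KIF20A: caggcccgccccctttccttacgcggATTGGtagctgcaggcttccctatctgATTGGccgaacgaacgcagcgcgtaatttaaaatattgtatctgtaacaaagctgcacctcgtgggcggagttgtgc

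The CHR letters began at position -29 from the start in CCNB2 and PLK1, at -31 in ESPL1, at -34 in KIF4A and at -20 in PRC1. KIF20A had no TTTGAA in its window and had CCAAT matches at -94 and -67. Other forms of the CHR were not searched, so a gene without TTTGAA may still carry one. In the stretch from -60 to -10, chosen after the matches were seen, TTTGAA was present in 15 of the 42 windows (35.7%), against 2.55% of all windows. A match describes letters, and binding was not measured here.

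**Figure D1:**
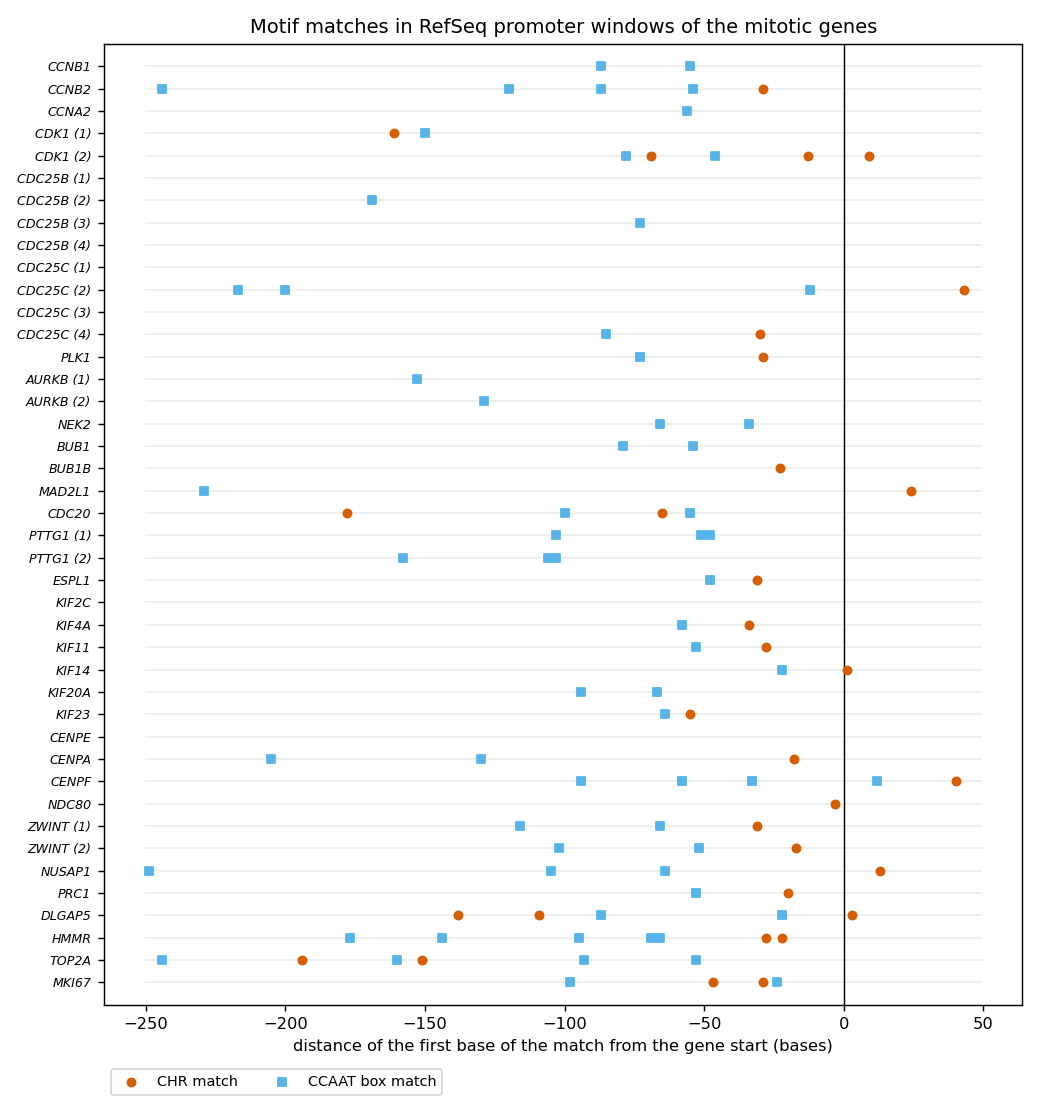
Positions of TTTGAA (CHR, orange circles) and CCAAT (blue squares) matches on either strand in the 42 promoter windows of 32 mitotic genes, as the distance in bases of the first base of the match from the gene start. In CCNB2, PLK1, ESPL1, KIF4A and PRC1 a TTTGAA match lies between -34 and -20, with CCAAT ahead of it.

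Any pair of arrays correlated at between 0.971 and 0.996 over all probe sets. The cells carried the markers of their line: 14 noradrenergic neuroblast markers had array medians of 11.85 to 12.09 in Bf 140 nM and 11.68 to 12.02 in DMSO 0.6%, while 14 mesenchymal or Schwann-like markers stood at 7.95 to 8.04 in Bf 140 nM and 8.05 to 8.13 in DMSO 0.6%, near the median of all probe sets (7.97). A library stood apart in transcript completeness. The beta-actin 3' probe set exceeded the 5' one by 0.24, 0.49 and 0.89 in Bf 140 nM replicates 1 to 3, and by 0.11, 0.32 and 2.21 in DMSO 0.6% replicates 1 to 3, so results are also given without DMSO 0.6% replicate 3.

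The probe set that represents each mitotic gene, the brightest of its set, had a mean above the median probe set for all 38, and 6 of the 65 member probe sets lay below it. After 4 h none of them passed the test for a difference between treatments: limma's adjusted p was under 0.10 for 0 of 38, and the lowest was 1.00 (background 0% of 22215 probe sets). No member probe set of the 65 reached an unadjusted p under 0.05 (background 0.0765%), also with the replicate number as a block. Over the whole array 17 of 22215 probe sets did in the unpaired fit, and 92 with the block. With so few over the whole array the test could call little, so its lack of calls is not particular to the mitotic genes. In 0 of 65 the Bf 140 nM values lay all above or all below the DMSO 0.6% values, against 1.68% of all probe sets higher and 0.981% lower. Of the 38 differences 24 were above 0 and 14 below, with a median of 0.06, beside 63.7% above 0 and a median of 0.03 over all genes. Without DMSO 0.6% replicate 3 the median was 0.02, with 23 above 0, and 15 of the 38 genes turned sign. The ratios ran between 0.866 for TTK and 1.25 for AURKB. The 95% confidence interval lay within a 2-fold ratio either way for 36 genes, the exceptions being PLK1 (-0.94 to 1.05) and TTK (-1.03 to 0.61), and within 1.5-fold for 21. With the replicate number as a block it lay within 2-fold for all 38, at -0.27 to 0.37 for PLK1 and -0.51 to 0.10 for TTK. In such bulk RNA, fewer cells in mitosis and less RNA per mitotic cell cannot be told apart.

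**Figure D2:**
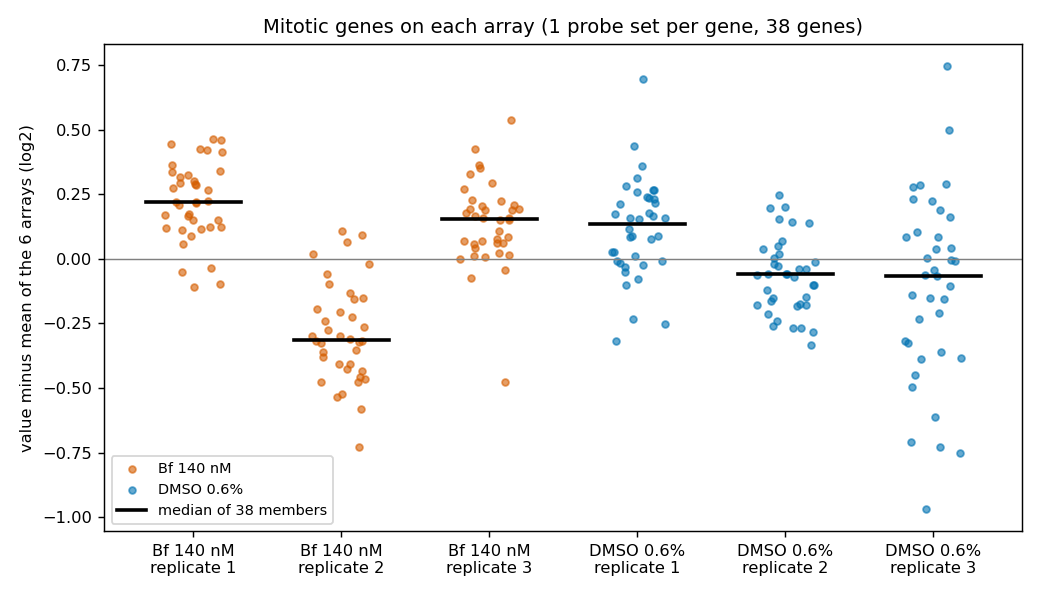
Level of each of the 38 mitotic genes on each array, as the value minus its mean over the 6 arrays (log2), with Bf 140 nM in orange left of DMSO 0.6% in blue and black bars for the medians. The median is highest in Bf 140 nM replicate 1 (0.22) and lowest in Bf 140 nM replicate 2 (-0.31), and the widest scatter is in DMSO 0.6% replicate 3.

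Among the cyclins, CDK1 and the CDC25 phosphatases that activate it, 4 of 6 genes had a difference above 0 and none passed the test. CDC25B read 10.79, 10.75 and 10.70 in Bf 140 nM replicates 1 to 3, and 10.92, 10.56 and 10.36 in DMSO 0.6% replicates 1 to 3 (difference 0.13, SE 0.15). CDC25C, which removes the inhibitory phosphates of CDK1 at mitotic entry, read 9.44, 9.21 and 9.28 in Bf 140 nM, and 9.28, 9.29 and 9.12 in DMSO 0.6% (0.08, SE 0.11). In both genes the groups overlapped, and the lowest of the 6 values was that of DMSO 0.6% replicate 3. The cyclin genes CCNB1, CCNB2 and CCNA2 had differences of 0.03, 0.15 and -0.04, and CDK1, the kinase they activate, one of -0.15.

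The mitotic kinases, with survivin, split 2 above and 3 below 0. AURKB, the kinase of the chromosomal passenger complex that corrects faulty attachments, read 10.34, 10.22 and 10.27 in Bf 140 nM, and 10.19, 10.27 and 9.41 in DMSO 0.6%. Only DMSO 0.6% replicate 3 was low, and the difference of 0.32 (SE 0.22), the highest of the 38, was 0.05 without that array. PLK1, which acts in mitotic entry, centrosome maturation and cytokinesis, read 10.41, 10.04 and 9.47 in Bf 140 nM, and 10.64, 10.14 and 8.98 in DMSO 0.6% (0.05, SE 0.42). Its values were ordered in the same way in both groups, with replicate 3 the lowest, its SE was the largest of the 38, and its difference was -0.42 without DMSO 0.6% replicate 3. NEK2, a centrosome-splitting kinase, read 11.17, 10.65 and 11.07 in Bf 140 nM, and 11.11, 10.90 and 11.10 in DMSO 0.6% (-0.08, SE 0.16). BIRC5, which encodes survivin, the partner of AURKB, read 11.97, 11.27 and 11.90 in Bf 140 nM, and 12.18, 11.48 and 11.68 in DMSO 0.6% (-0.07, SE 0.24). For NEK2 and BIRC5 replicate 2 was the lowest in each group. AURKA, the spindle pole kinase, had a difference of -0.09.

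The spindle checkpoint genes had a median difference of -0.10, with 2 of 5 above 0, and without DMSO 0.6% replicate 3 the median was 0.02, with 3 of 5 above 0. TTK, which encodes the kinase MPS1 at the head of the checkpoint, read 10.56, 9.74 and 10.80 in Bf 140 nM, and 10.37, 10.14 and 11.22 in DMSO 0.6%. Its difference of -0.21 (SE 0.35) was the lowest of the 38 and turned to 0.11 without DMSO 0.6% replicate 3, its highest array. MAD2L1, the inhibitor of CDC20, read 11.50, 11.19 and 11.77 in Bf 140 nM, and 11.50, 11.80 and 11.54 in DMSO 0.6% (-0.12, SE 0.17). BUB1, a kinetochore kinase of the checkpoint, read 10.44, 9.70 and 10.35 in Bf 140 nM, and 10.31, 9.97 and 10.16 in DMSO 0.6% (0.01, SE 0.21). Bf 140 nM replicate 2 was the lowest of the 6 arrays for all 3 genes. BUB1B and BUB3, which join the complex that restrains the APC/C, had differences of 0.03 and -0.10.

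Of the 4 genes of the APC/C pathway and chromatid separation, 3 had differences above 0. CDC20, the activator of the APC/C, read 11.42, 10.68 and 11.21 in Bf 140 nM, and 11.34, 10.84 and 10.84 in DMSO 0.6% (0.10, SE 0.22). ESPL1, which encodes separase, read 10.81, 10.45 and 10.79 in Bf 140 nM, and 10.83, 10.36 and 10.37 in DMSO 0.6% (0.16, SE 0.17). Replicate 1 was the highest in each group for both genes, and the groups overlapped. UBE2C, the ubiquitin-conjugating enzyme of the APC/C, and PTTG1, which encodes the separase inhibitor securin, had differences of 0.09 and -0.03.

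Of the kinesins, 6 of 7 were above 0 with a median of 0.12, and none passed the test. Without DMSO 0.6% replicate 3, 3 of 7 were above 0, with a median of -0.01. KIF20A, a motor of the central spindle, read 10.88, 10.29 and 10.52 in Bf 140 nM, and 10.65, 10.35 and 9.80 in DMSO 0.6%. Its difference of 0.29 (SE 0.24) was 0.06 without DMSO 0.6% replicate 3, its lowest array. KIF14, a kinesin of cytokinesis, read 11.05, 10.33 and 10.69 in Bf 140 nM, and 10.62, 10.57 and 10.52 in DMSO 0.6% (0.12, SE 0.18), so that the Bf 140 nM values lay on both sides of the DMSO 0.6% values. KIF2C (the microtubule depolymerase MCAK), the chromokinesin KIF4A, KIF23 (a centralspindlin subunit) and CENPE, a kinetochore motor, had differences of 0.12, 0.10, 0.18 and 0.12, and KIF11, the motor that separates the spindle poles, one of -0.04. All 7 were below 0 in the pair of replicate 2, as were 76.0% of all genes above the median level.

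Of the 4 centromere and kinetochore genes, 3 were above 0. CENPA, the histone H3 variant that marks the centromere, read 10.16, 9.75 and 9.92 in Bf 140 nM, and 10.16, 9.69 and 9.40 in DMSO 0.6%, with a mean of 9.94 ± 0.21 in Bf 140 nM and 9.75 ± 0.38 in DMSO 0.6% (SD, n = 3 each). It alone of the 38 (2.63%) was above 0 in all 3 pairs of the same replicate number, by 0.00, 0.06 and 0.52, against 8.56% of all genes. None of the 38 was below 0 in all 3, against 4.39% of all genes. The CENPA difference of 0.19 was 0.02 without DMSO 0.6% replicate 3, its lowest array. NDC80, the microtubule-binding kinetochore subunit, read 10.59, 10.16 and 10.82 in Bf 140 nM, and 10.15, 10.54 and 10.56 in DMSO 0.6% (0.11, SE 0.19). Its groups overlapped, with the lowest value in DMSO 0.6% replicate 1. CENPF and ZWINT, both kinetochore proteins, had differences of 0.08 and -0.09.

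Of the 5 spindle assembly and midzone genes, 2 were above 0. TPX2, which activates AURKA on the spindle, read 11.78, 11.31 and 11.26 in Bf 140 nM, and 11.60, 11.47 and 10.59 in DMSO 0.6% (0.23, SE 0.28). Its difference was -0.09 without DMSO 0.6% replicate 3, its lowest array. PRC1, the antiparallel microtubule bundler of the midzone, read 12.31, 11.89 and 12.24 in Bf 140 nM, and 12.35, 12.19 and 12.14 in DMSO 0.6% (-0.08, SE 0.14). Bf 140 nM replicate 2 was its lowest array. NUSAP1, DLGAP5 and HMMR, which encode microtubule-associated proteins of the spindle, had differences of -0.01, 0.00 and -0.08. The remaining genes act on the chromosome. TOP2A, the topoisomerase that untangles sister chromatids, read 12.35, 11.80 and 12.65 in Bf 140 nM, and 11.98, 12.08 and 12.51 in DMSO 0.6% (0.08, SE 0.24). MKI67, whose protein Ki-67 coats mitotic chromosomes and serves as a proliferation marker, read 10.74, 10.47 and 10.41 in Bf 140 nM, and 10.54, 10.59 and 9.96 in DMSO 0.6% (0.18, SE 0.19). Replicate 3 was the highest of each group for TOP2A and the lowest of each group for MKI67. Without DMSO 0.6% replicate 3 the difference was 0.24 for TOP2A and -0.03 for MKI67.

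**Figure D3:**
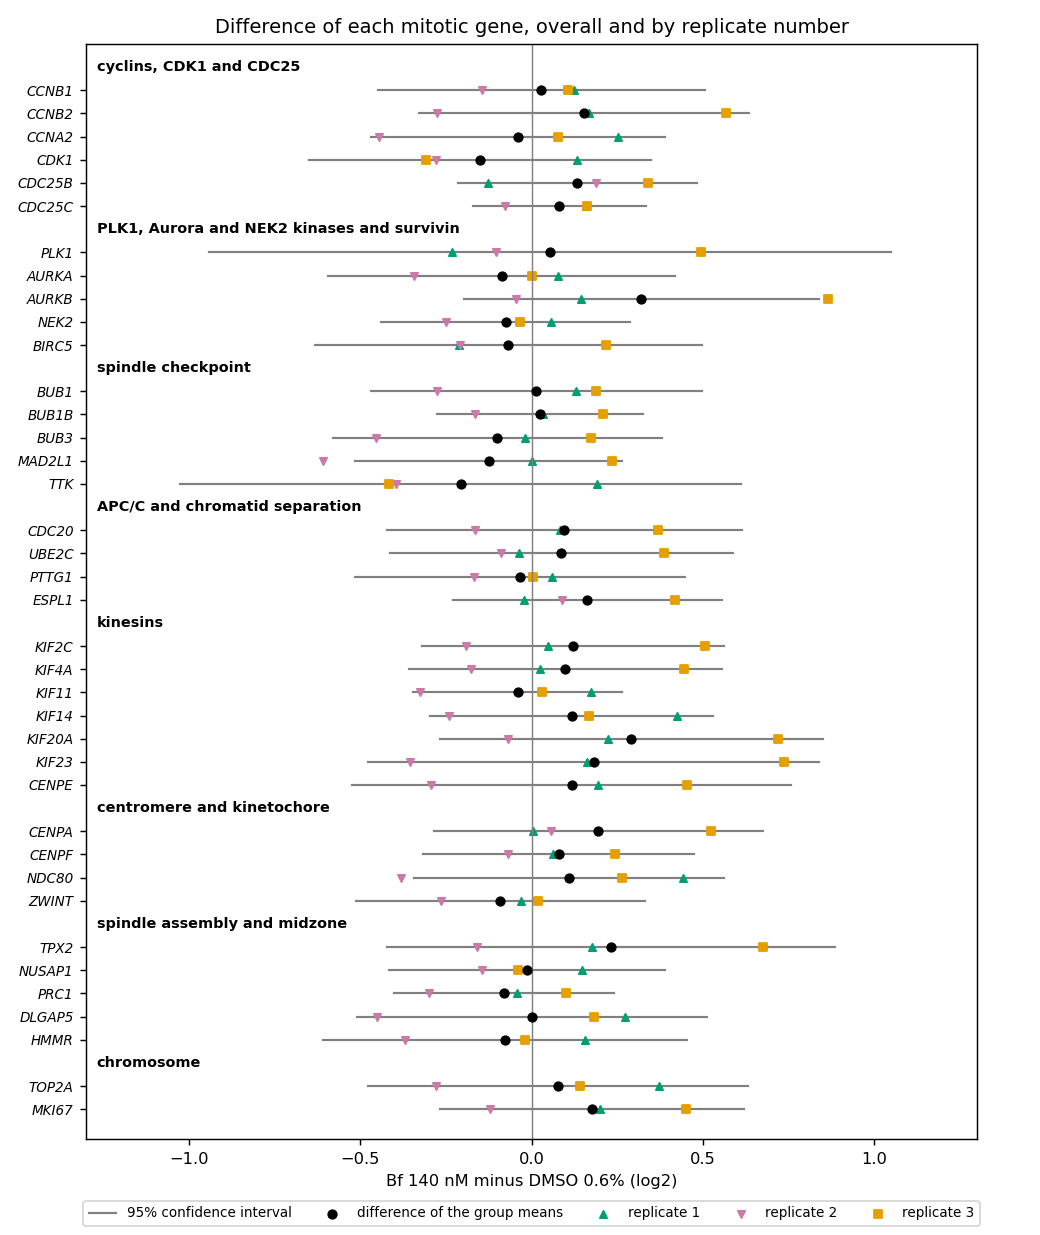
Bf 140 nM minus DMSO 0.6% (log2) of each of the 38 genes, grouped by role: black points are the differences of the group means with 95% confidence intervals, and coloured symbols are the differences of arrays of the same replicate number. Every interval spans 0, and 35 of the 38 triangles of replicate 2 lie left of 0, beside 76.0% of all genes above the median level.

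The direction of the differences followed the replicate number. In the pair of replicate 1 the median over the 38 genes was 0.13, with 30 above 0. In that of replicate 2 it was -0.23, with 35 below 0, and in that of replicate 3 it was 0.21, with 33 above 0. Over all genes the medians of the same pairs were 0.03, -0.02 and 0.06, and over genes above the median level they were 0.06, -0.13 and 0.20. The shares below 0 in pairs 1 to 3 were 21.1%, 92.1% and 13.2% of the 38 genes. They were 34.6%, 76.0% and 20.4% of genes above the median level, so within each pair most of those genes lay on the same side. Signs above, below and above 0 in pairs 1 to 3 were held together by 24 of the 38 genes (63.2%). The shares were 46.5% of genes above the median level and 29.9% of all genes. Bf 140 nM replicate 2 was the lowest of the 6 arrays for 23 of the 38 mitotic genes, against 21.3% of all genes and 33.1% of those above the median level. After quantile normalization, which gives every array the same distribution of values, the pair medians over the 38 genes were 0.05, -0.03 and 0.02. Then 20 of 38 were below 0 in pair 2, and 21 were above 0 in pair 3. The interquartile range of all probe sets was 2.57, 2.25 and 2.66 in Bf 140 nM replicates 1 to 3, and lay between 2.33 and 2.5 in DMSO 0.6%. Its part in the pair differences was not tested beyond that normalization.

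For many mitotic genes replicate 1 stood above replicate 2 in both treatments. Replicate 1 was above replicate 2 in Bf 140 nM for 38 of 38 genes (median 0.52) and in DMSO 0.6% for 29 of 38 (median 0.19). It was above in both treatments for 29 of 38 (76.3%), against 26.8% of all genes and 37.5% of genes above the median level. As all 38 were above in Bf 140 nM, this count is that of DMSO 0.6% alone. Genes with replicate 2 above in both treatments are not in these shares. After quantile normalization these shares were 30 of 38 (78.9%), 27.1% and 29.4%, and the medians over the mitotic genes were 0.30 in Bf 140 nM and 0.24 in DMSO 0.6%. The other G2/M genes were above in both treatments in 33 of 64 (51.6%), and the DNA replication genes in 14 of 48 (29.2%). The levels of genes on the same arrays are not independent, so these counts carry no test.

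A limma F test of the replicate number, given the treatment, was added after these values were seen. It called 13 of 38 mitotic genes at an adjusted p of 0.10 (34.2%; background 11.0% of 22215 probe sets), and 19 of 38 after quantile normalization (background 17.3%). PLK1 had replicate means of 10.53, 10.09 and 9.23 (limma adjusted p = 0.00601), TTK of 10.47, 9.94 and 11.01 (limma adjusted p = 0.0122), and BIRC5 of 12.08, 11.37 and 11.79 (limma adjusted p = 0.0439). The others called were CDK1, CCNB1, AURKA, CDC20, UBE2C, PTTG1, CENPE, TPX2, HMMR and TOP2A. Replicate 2 had the lowest mean in 10 of these 13 genes and replicate 3 in the other 3, PLK1, TPX2 and UBE2C. Over the 38, replicate 1 had the lowest mean in 0. After quantile normalization the 19 genes called split into 10 with replicate 2 and 9 with replicate 3 the lowest, and over the 38 replicate 1 was the lowest in 3. With both arrays of replicate 3 left out, so that replicates 1 and 2 alone were compared, 12 of 38 were called (31.6%; background 2.62%). The share was 4% of genes above the median level. After quantile normalization 7 of 38 were called (18.4%), against 3.8% of genes above the median level and 2.47% of all genes. Leaving out single arrays moved the count of 13 to between 3 and 25. It was 4 (10.5%; background 7.58%) without Bf 140 nM replicate 1, 6 (15.8%; background 11.9%) without Bf 140 nM replicate 2 and 3 (7.89%; background 5.67%) without DMSO 0.6% replicate 1, shares near the background. It was 25 (65.8%) without Bf 140 nM replicate 3 (background 19.7%) or without DMSO 0.6% replicate 2 (background 17.3%), and 17 (44.7%; background 10.3%) without DMSO 0.6% replicate 3. What a replicate number marks, such as a day or a passage of the cells, is not stated in the labels or methods, and its part was not tested.

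For the 15 genes with several probe sets, the probe sets of a gene had the same direction between treatments in 4 (ESPL1, KIF2C, TOP2A and MKI67) and mixed directions in 11. These probe sets include the 6 below the median probe set, which are of CDC25C, AURKA, BUB1 and CENPF. Their brighter probe sets had the same direction for CDC25C (0.08 and 0.23) and BUB1 (0.01 and 0.33). Directions stayed mixed for AURKA (-0.09 and 0.11) and CENPF (0.08 and -0.05). Without DMSO 0.6% replicate 3 the range of differences between a gene's probe sets narrowed in 9 of 15, with a median of 0.17 against 0.20 over all arrays, and it widened to 0.32 for TOP2A. Within DMSO 0.6%, the shift of replicate 3 from the mean of DMSO 0.6% replicates 1 and 2 differed between probe sets of the same gene by a median of 1.03, against 0.28 for the shift of Bf 140 nM replicate 2 from the mean of Bf 140 nM replicates 1 and 3, and it was the wider range in 14 of 15 genes. The brightest NEK2 probe set shifted by 0.10 on DMSO 0.6% replicate 3 and the other one by -1.62. The 3 BIRC5 probe sets shifted by -0.15, -0.24 and -1.66, and the BUB1 probe sets by between -1.64 and 0.24. The 0.24 was that of a BUB1 probe set below the median probe set, and the brightest one shifted by 0.01. Probe sets of each of these 3 genes thus disagreed by over 1 log2 unit on that array, on which the beta-actin gap of 3' over 5' was also the widest. Where each probe set lies on its transcript was not analysed here, and the part of transcript completeness was not tested. The second NEK2 probe set differed by 0.45 between treatments, and by -0.09 without DMSO 0.6% replicate 3.

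**Figure D4:**
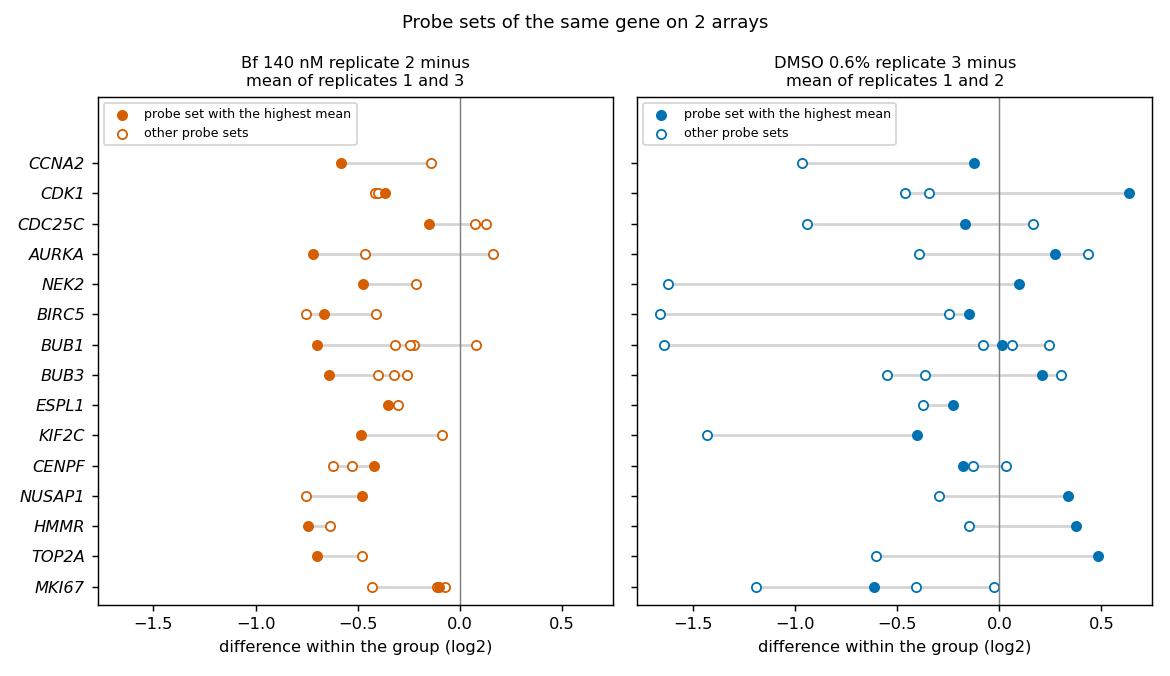
Probe sets of the 15 mitotic genes with several, with the shift (log2) of Bf 140 nM replicate 2 from the mean of the other Bf 140 nM arrays on the left, and of DMSO 0.6% replicate 3 from the mean of the other DMSO 0.6% arrays on the right. Filled points are the probe set with the highest mean and open points the others. For 14 of 15 genes the probe sets lie closer together on the left (median range 0.28) than on the right (median range 1.03). On the right they reach as far as -1.66 for BIRC5. The exception is AURKA, with a range of 0.88 on the left and 0.83 on the right.

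The further genes of the same pathway gave no call for treatment either. Of 64 other G2/M genes 0 passed the test and 49 were above 0, with a median of 0.06. Without DMSO 0.6% replicate 3, 30 were above 0, with a median of -0.00. The 4 with the lowest unadjusted p were CDKN3, a phosphatase that dephosphorylates cyclin-dependent kinases (difference 0.12, SE 0.11), ECT2, the exchange factor that starts cytokinesis (-0.15, SE 0.15), CDCA3 (0.18, SE 0.18) and CENPM, a centromere protein (0.12, SE 0.12). Of 48 DNA replication genes 0 passed and 34 were above 0, with a median of 0.05, and without DMSO 0.6% replicate 3, 21 were above 0, with a median of -0.01. In pairs 1 to 3 the other G2/M genes had medians of 0.08, -0.21 and 0.25 and the DNA replication genes of 0.06, -0.18 and 0.28, in the same order of signs as those of the 38 mitotic genes. Beside the mitotic share of 34.2%, the F test of the replicate number called 5 of the other G2/M genes (7.81%) and 10 of the DNA replication genes (20.8%). The share over all genes was 8.79%, so that of the other G2/M genes was near it. After quantile normalization the F test called 18 of 64 (28.1%) and 14 of 48 (29.2%), beside 19 of 38 mitotic genes (50%) and 15.2% of all genes. Of the 14 noradrenergic markers it called 3 (21.4%), and 7 (50%) after quantile normalization, the same share as of the mitotic genes. Of the 14 mesenchymal or Schwann-like markers it called 1 (7.14%) on either scale.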

How the data were processed

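The 6 arrays, 3 of Bf 140 nM and 3 of DMSO 0.6% at 4 h, were all used. The authors obtained intensities from the scans with Affymetrix software, normalised them by variance stabilisation (vsn) in R version 2.5.0 and deposited generalised log2 values, which compress differences of dim probe sets. The step that summarised probes into probe sets is not stated in the methods or labels. The logarithm was taken as base 2 because the highest value, 15.18, lies above the natural logarithm (11.09) and below the log2 (16) of the 16-bit scanner limit. Array medians were not centred and ranged between 7.85 and 8.00. The number of arrays limits the precision.

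Of 22277 probe sets, 62 controls were left out of tests. Symbols came from the platform annotation, updated through a RefSeq gene table: 19064 had 1 symbol, 1043 several and 2108 none. A further CENPA probe set, with several symbols, was not used. Each gene is given by its brightest probe set (highest mean of the 6 arrays).

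Differences were tested over all 22215 probe sets with limma (version 3.58.1, R version 4.3.3), in an unpaired two-sided fit, with Benjamini-Hochberg adjusted p-values and a threshold of 0.10. The methods name SAM at about that false discovery rate, and limma stands in for it, since no SAM package was installed. Replicate numbers are shared by both groups. Deviations from the group means correlated, between arrays of the same number, at 0.60, 0.23 and 0.57, each above the minimum of 0.1. That minimum was also passed by Bf 140 nM replicate 1 with DMSO 0.6% replicate 2, at 0.264. Bf 140 nM replicate 2 with DMSO 0.6% replicate 1 passed it too, at 0.103. The remaining pairs of different numbers lay below 0, between -0.54 and -0.20. The pairing of replicate 2 was thus not shown by this rule. The unpaired fit was the main test and gave the printed SEs, and a replicate block was an alternative. Flasks were separate for each treatment, and replicates were independent biological ones, per the methods. The members and lists were chosen with earlier results of these data known. Genes given with each array's value were, per role, the 2 with the lowest unadjusted p, the 3 with the widest range between probe sets, and the highest and lowest differences. PLK1 was added after its values were seen, as were the genes printed for the replicate test. Other alternatives were quantile normalization, median centring, a filter on low values, the mean of a gene's probe sets, leaving out _s_at and _x_at probe sets, a beta-actin covariate, trended and robust variances, and leaving out arrays or pairs. Both limma tests were also run on simulated data. Their noise was drawn independently for each probe set and array, unlike the correlated deviations of these arrays, so nothing is concluded from them here. Promoters came from RefSeq (GRCh38.p14), and TTK, TPX2, BUB3, AURKA, UBE2C and BIRC5 had none in the table used.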

Additional observations from a re-analysis of the deposited data

How the results depend on the processing

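Under every alternative 0 of the 38 mitotic genes passed the threshold for treatment, also at adjusted p of 0.05 and 0.20, and with the replicate block. With the replicate block the median difference was 0.06, as in the unpaired fit, and over the whole array 0 probe sets passed, with 92 at an unadjusted p under 0.05 against 17. With the replicate block and pair 3 left out, 2 probe sets of the whole array passed, and neither was of a mitotic gene. The count of mitotic genes whose groups did not overlap was 0 over all arrays, and 3, 9 and 2 with the replicate block and pairs 1, 2 and 3 left out (7.89%, 23.7% and 5.26%), against 11.5%, 30.3% and 19.7% of all probe sets. The 3 and the 9 genes were all higher in Bf 140 nM, against 7.38% and 17.8% of all probe sets. The 2 were lower, against 6.97%. With 1 array left out the count ran between 0 and 9. It was highest without Bf 140 nM replicate 2 (23.7%, against 17.6% of all probe sets). Those 9 genes were all higher in Bf 140 nM, against 10.3% of all probe sets. The median difference was then 0.21 over the 38 genes, 0.12 over genes above the median level and 0.04 over all genes. The median difference turned sign in some settings, to -0.07 with the replicate block without pair 3, -0.01 without pair 1, -0.06 without Bf 140 nM replicate 1 and -0.04 without Bf 140 nM replicate 3, and was 0.21 without Bf 140 nM replicate 2, 0.12 without DMSO 0.6% replicate 1, 0.02 without DMSO 0.6% replicate 3 and 0.02 after quantile normalization. The cause was not tested.

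The count of 13 genes that differed between replicate numbers was 6 without pair 1 (15.8%; background 7.48%), and ran between 3 and 25 with 1 array left out (backgrounds 5.67% to 19.7%). It was 9 with the filter on low values (background 15.5%), 9 with the mean of a gene's probe sets (background 6.64%), 19 after median centring (background 16.3%) and 12 with trended and robust variances (background 16.6%). These alternatives were chosen after seeing the data. Without the replicate block the intervals of PLK1 and TTK reached past a 2-fold ratio, and with it they did not.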
